A study of Mus musculus with 20 samples.

Results

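Eef1a1, Eef2 and Pabpc1 encode a pair of translation elongation factors and the cytoplasmic poly(A)-binding protein, and their footprints were followed across all 20 libraries of a study of mouse embryonic fibroblasts (strain C57BL/6J). The members were named by Ensembl transcript identifier, as ENSMUST00000042235 (Eef1a1), ENSMUST00000047864 (Eef2) and ENSMUST00000001809 (Pabpc1). That rule used no measured value, but the members were chosen with earlier results of these data known. All 3 were found, of 15354 transcripts listed in any library, and each was listed in 20 of 20 libraries. eIF3-80S-seq, which samples fragments held by 80S ribosomes associated with the initiation factor eIF3, comprised 8 libraries. Ribo-seq, which samples the footprints of all ribosomes, comprised 12 libraries.

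The cells were of 3 backgrounds. Ogt KO cells had lost Ogt after 4-OHT (0.5 µM for 24 h, then fresh medium for 24 h). Thiamet-G cells had been given that compound at 0.1 µM for 16 h, and control cells had neither treatment according to the labels. Ogt encodes the enzyme that attaches O-GlcNAc to intracellular proteins, and Thiamet-G inhibits the enzyme that removes it. Cells of each background were starved of amino acids for 2 h, in DMEM with "DFBS" (an abbreviation the labels do not explain), or were fed. Ribo-seq had 2 libraries of each of the 6 groups. eIF3-80S-seq had 1 each of starved and fed Ogt KO cells, 1 each of starved and fed Thiamet-G cells, and 2 each of starved and fed control cells. The labels give 4-OHT for Ogt KO cells alone, so the loss of Ogt and that treatment cannot be told apart. Separate cultures are not stated for the replicates, so the p-values measure a spread that may be technical.

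eEF1A1 is the GTPase that delivers aminoacyl-tRNA to the ribosome, eEF2 is the GTPase that moves the ribosome along by a codon, and PABPC1 coats the poly(A) tail and contacts the initiation factor eIF4G at the other end of the mRNA. All are encoded by TOP mRNAs, which begin with a cytidine at the cap followed by a run of pyrimidines. In mammalian cells the translation of TOP mRNAs is known to depend on the kinase complex mTORC1, which senses amino acids, and on the cap-binding repressor LARP1. Ribosomal proteins make up most of this class, and their mRNAs are much shorter than the 3 described here.

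A run of pyrimidines lies near the annotated transcription start of the elongation factor genes. Windows of 30 bases are shown for the members that the RefSeq promoter table (GRCm38.p6) held, 2 of 3. Each holds such a run, which spans the annotated start in Eef1a1 and lies after it in Eef2. Each is written on the gene's strand, with the motif CTCTTCC in capitals.
Eef1a1, chr9:78481710-78481739, minus strand: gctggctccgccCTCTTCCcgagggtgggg
Eef2, chr10:81176631-81176660, plus strand: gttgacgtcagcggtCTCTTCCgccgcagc
The motif began 3 bases before the annotated start of Eef1a1 (position -3) and at base 16 of Eef2, counted from the annotated start. It was chosen after these sequences had been looked at. It occurred within 15 bases before to 30 bases after the annotated start, on the gene's strand, in 267 of 32851 promoters (0.813%), and on either strand of the whole 300 bases in 3663 (11.2%). Neither member held it on the opposite strand. A match describes the letters and is no measurement of a start site.

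In GRCm38.p6, RefSeq places Eef1a1 at chr9:78478453-78481724, Eef2 at chr10:81176631-81182509 and Pabpc1 at chr15:36595658-36609581. Coding lengths recovered from the values were 1389 nt for Eef1a1, 2577 nt for Eef2 and 1911 nt for Pabpc1, which correspond to proteins of 462, 858 and 636 residues, the known lengths of these mouse proteins. Among transcripts of recovered length they stood at percentiles 47.5, 78.7 and 65.4 of coding length. Eef1a1 has many processed pseudogenes and Pabpc1 has related family members, and how reads that match more than 1 place were counted is not given in the sources used here. A footprint level combines the amount of mRNA with the ribosomes on each mRNA, and RNA abundance was not analysed here. In such bulk samples, fewer cells of a type and less RNA per cell cannot be told apart.

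Values are RPKM, reads scaled to transcript length and to the total reads of the library, so they compare transcripts per length and are relative to each library. Library totals recovered from the values were 52148 to 359282 reads for eIF3-80S-seq and 844403 to 5846130 for Ribo-seq. Over the eIF3-80S libraries Eef1a1 had 291 to 2552 reads, Eef2 56 to 1187 and Pabpc1 24 to 958. Over the Ribo-seq libraries the ranges were 1166 to 50214 for Eef1a1, 316 to 5962 for Eef2 and 119 to 2926 for Pabpc1. The thinnest value was Pabpc1 in starved control replicate 1 of eIF3-80S-seq, where 24 reads made 0.0460% of the library (95% Wilson interval 0.0309% to 0.0685%). Intervals of this kind cover counting error only.

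On eIF3-associated ribosomes, footprints of Pabpc1 and Eef2 were lower in starved than in fed cells. Pabpc1 fell by 2.63-fold and Eef2 by 2.03-fold, in a fit of background and starvation over 8 libraries, and Eef1a1 did not pass the threshold. The comparison asks how 2 h without amino acids altered the share of eIF3-80S footprints on each mRNA.

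Pabpc1 had 636 RPKM in starved Ogt KO cells, 436 RPKM in starved Thiamet-G cells, and 241 and 372 RPKM in starved control cells. In fed cells it had 1462 RPKM in Ogt KO, 1395 RPKM in Thiamet-G, and 576 and 819.8 RPKM in control cells. Each starved library lay below every fed library of its own background, while starved Ogt KO cells lay above the lower fed control library, so the 4 starved and the 4 fed libraries overlapped when pooled. The mean was 421 ± 165 RPKM in starved and 1063 ± 434 RPKM in fed libraries (SD, n = 4 each). Within backgrounds the log2 ratio of starved to fed, after the libraries were rescaled to each other, was -1.40 in Ogt KO, -1.41 in Thiamet-G and -1.39 in control cells. In the RPKM as deposited it was -1.20 in Ogt KO, -1.68 in Thiamet-G and -1.20 in control cells, so how alike the backgrounds were depended on the rescaling. The fitted change was -1.40 on the log2 scale (SE 0.21, 95% interval -1.87 to -0.93, limma adjusted p = 0.00445), lower in 3 of 3 backgrounds, as were 415 of 1679 transcripts (24.7%).

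Eef2 had 500.3 RPKM in starved Ogt KO cells, 535 RPKM in starved Thiamet-G cells, and 417 and 630.5 RPKM in starved control cells. In fed cells it had 939 RPKM in Ogt KO, 1282 RPKM in Thiamet-G, and 693 and 1158 RPKM in control cells. All 4 starved libraries lay below all 4 fed libraries, an order seen in 131 of 1679 transcripts tested (7.8%). The mean was 520.7 ± 88.5 RPKM in starved and 1018 ± 259 RPKM in fed libraries (SD, n = 4 each). The log2 ratio of starved to fed was -1.11 in Ogt KO, -0.99 in Thiamet-G and -1.0 in control cells after rescaling, and -0.91, -1.26 and -0.80 in the same order as deposited. The fitted change was -1.02 on the log2 scale (SE 0.22, 95% interval -1.51 to -0.54, limma adjusted p = 0.0156). The Eef2 call ended under quantile normalization (-0.72, limma adjusted p = 0.0998), when transcripts missing from a library were tested too (-1.02, limma adjusted p = 0.107), and without any 1 of the 4 Ogt KO and Thiamet-G libraries (-1.04 to -0.997, limma adjusted p = 0.0654 to 0.0737). Pabpc1 passed under each of the 15 alternatives run (limma adjusted p = 0.00252 to 0.0453). Starved libraries held 52148 to 229599 reads and fed libraries 148884 to 359282, and without the shallowest, starved control replicate 1, the changes were -1.29 for Pabpc1 (limma adjusted p = 0.00979) and -0.93 for Eef2 (limma adjusted p = 0.0401).

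Eef1a1 had 3183 RPKM in starved Ogt KO cells, 2397 RPKM in starved Thiamet-G cells, and 4017 and 3381 RPKM in starved control cells. In fed cells it had 3874 RPKM in Ogt KO, 5114 RPKM in Thiamet-G, and 3583 and 5067 RPKM in control cells. The groups overlapped, because starved control replicate 1 exceeded fed control replicate 1 and fed Ogt KO cells. The mean was 3245 ± 668 RPKM in starved and 4409 ± 795 RPKM in fed libraries (SD, n = 4 each). The log2 ratio of starved to fed was -0.48 in Ogt KO, -0.82 in Thiamet-G and -0.41 in control cells after rescaling, and -0.28, -1.09 and -0.21 in the same order as deposited. The fitted change of -0.53 on the log2 scale (SE 0.21, 95% interval -1.0 to -0.058) had a limma adjusted p of 0.141, and quantile normalization turned it to 0.10.

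Of the 3 members 2 were thus called lower, where 104 of 1679 transcripts (6.19%) were called lower and 76 (4.53%) higher, together 10.7%. The median log2 change of the members was that of Eef2, -1.02, against 0.025 over all transcripts tested. Pabpc1 stood at percentile 1.55 of all log2 changes, Eef2 at 5.36 and Eef1a1 at 16.1. Calls were unevenly spread over coding length and level. Coding regions of at most 600 nt had a median log2 change of -0.22 and 48 of 303 were called lower, while those over 3000 nt had a median of 0.22 and 4 of 259 were called lower. The members lie in the class of over 1200 to 3000 nt, with a median of 0.10 and 23 of 659 called lower, and within it Pabpc1 stood at percentile 0.8, Eef2 at 2.6 and Eef1a1 at 10.5. Transcripts of at least 1000 RPKM had a median of -0.46, with 54 of 205 called lower.

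**Figure D1:**
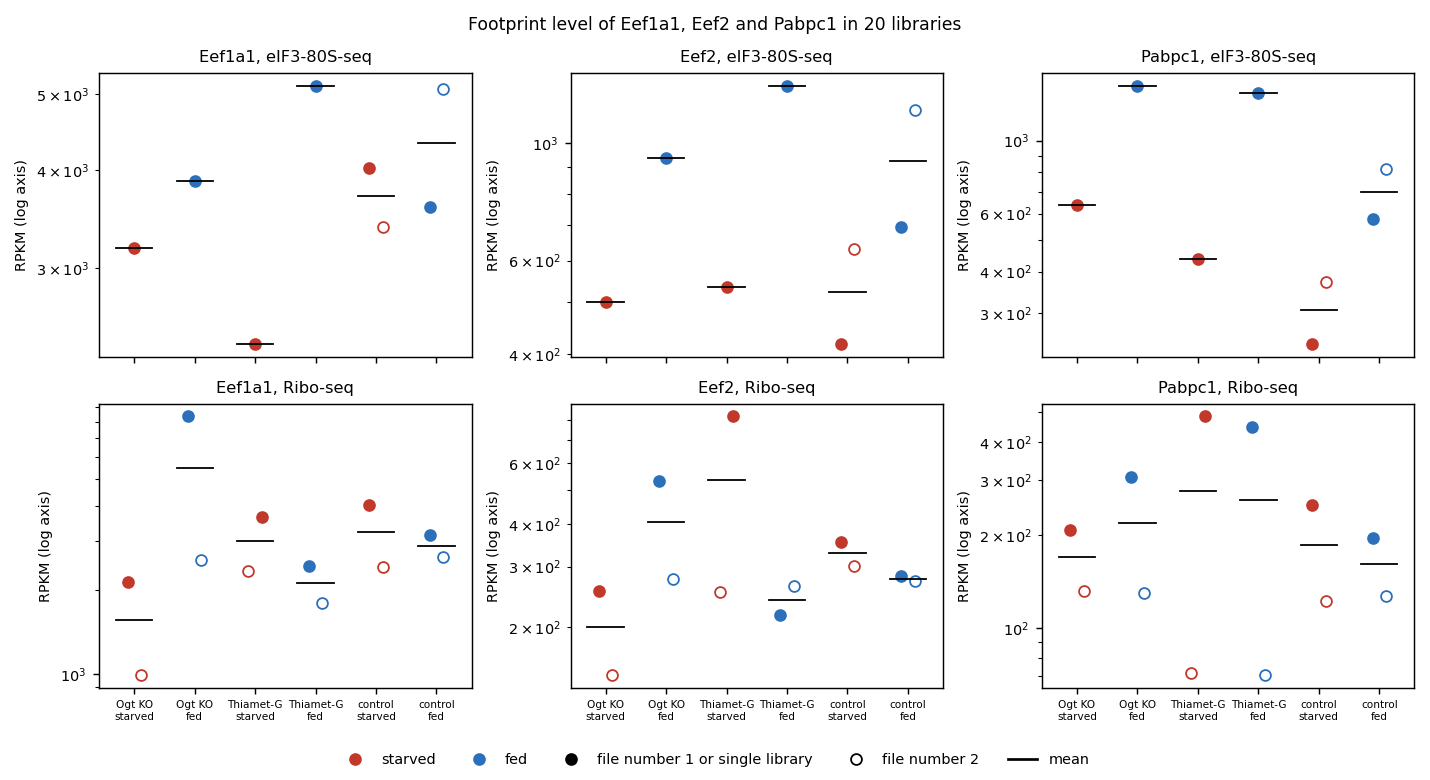
Footprint level (RPKM, log axis) of Eef1a1, Eef2 and Pabpc1 in each library, with eIF3-80S-seq above and Ribo-seq below, and groups along the x axis. Points are libraries, filled for file number 1 or a single library and open for file number 2, and bars are group means; all 4 starved libraries lie below the 4 fed ones for Eef2 in eIF3-80S-seq, and filled points lie above open ones for Pabpc1 in each Ribo-seq group.

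In Ribo-seq no difference between starved and fed cells was detected for a member when averaged over the backgrounds. Of the 3, limma called 0, where 19 of 10936 transcripts (0.174%) were called, all of them lower (984 passed an unadjusted p of 0.05; on recovered reads limma-voom called 49 transcripts and 0 members). With a block for the replicate number in the deposited file names, limma called 100 transcripts, 21 higher and 79 lower, and limma-voom 379, 257 higher and 122 lower, again with 0 members in either.

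Pabpc1 had 207 and 131 RPKM in starved Ogt KO cells, 71.7 and 483 RPKM in starved Thiamet-G cells, and 249 and 122 RPKM in starved control cells. In fed cells it had 307 and 129 RPKM in Ogt KO, 446 and 70.6 RPKM in Thiamet-G, and 195.5 and 127 RPKM in control cells. Replicates of each group differed more than starved and fed means did. The mean was 211 ± 148 RPKM in starved and 213 ± 140 RPKM in fed libraries (SD, n = 6 each), and the log2 change was -0.10 (95% interval -1.24 to 1.03, limma adjusted p = 0.967).

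Eef2 had 255 and 145 RPKM in starved Ogt KO cells, 252 and 822 RPKM in starved Thiamet-G cells, and 354 and 302 RPKM in starved control cells. In fed cells it had 535 and 276 RPKM in Ogt KO, 217 and 264 RPKM in Thiamet-G, and 281 and 273 RPKM in control cells. Both starved control libraries lay above both fed ones, and both starved Ogt KO libraries below both fed ones. Neither change was called, and the share of all transcripts with such orders was not counted. The mean was 355 ± 239 RPKM in starved and 308 ± 114 RPKM in fed libraries (SD, n = 6 each), and the log2 change was -0.03 (95% interval -0.72 to 0.67, limma adjusted p = 0.987).

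Eef1a1 had 2133 and 994 RPKM in starved Ogt KO cells, 2328 and 3656 RPKM in starved Thiamet-G cells, and 4042 and 2413 RPKM in starved control cells. In fed cells it had 8352 and 2556 RPKM in Ogt KO, 2444 and 1794 RPKM in Thiamet-G, and 3137 and 2626 RPKM in control cells. One fed Ogt KO library, at 8352 RPKM, stood far above the other 11. The mean was 2594 ± 1104 RPKM in starved and 3485 ± 2423 RPKM in fed libraries (SD, n = 6 each), and the log2 change was -0.44 (95% interval -1.21 to 0.33, limma adjusted p = 0.744). The interval of Eef1a1 in Ribo-seq includes its eIF3-80S change of -0.53, whereas those of Eef2 and Pabpc1 end short of their eIF3-80S changes of -1.02 and -1.40.

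Within single backgrounds limma called 0 of 10936 transcripts for starvation (0.0%) and so 0 of the 3 members. Without adjustment 99 transcripts in Ogt KO, 653 in Thiamet-G and 744 in control cells passed 0.05. On recovered reads limma-voom called 0 in each. Eef1a1 had the most pronounced response in Ogt KO cells, with a log2 change of -1.67 (95% interval -3.00 to -0.34, limma adjusted p = 1), against 0.35 in Thiamet-G and 0.01 in control cells. Without single libraries the Eef1a1 change in Ogt KO cells ran from -2.48 to -0.86. For Eef2 the log2 changes were -1.0 in Ogt KO, 0.80 in Thiamet-G and 0.13 in control cells. For Pabpc1 they were -0.28, -0.06 and 0.03 in the same order. The Ogt KO response of Eef1a1 differed from that of control cells by -1.68 (95% interval -3.56 to 0.20, limma adjusted p = 1), and the difference for Eef2 was -1.13 (95% interval -2.83 to 0.57, limma adjusted p = 1). The response of Thiamet-G cells differed from that of control cells by 0.34 for Eef1a1, 0.67 for Eef2 and -0.10 for Pabpc1 (limma adjusted p = 1 for each). No difference between backgrounds was therefore shown for any member, where limma called 0 of 10936 transcripts (0.0%) in either interaction, with 216 at an unadjusted p under 0.05 for Ogt KO and 145 for Thiamet-G.

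**Figure D2:**
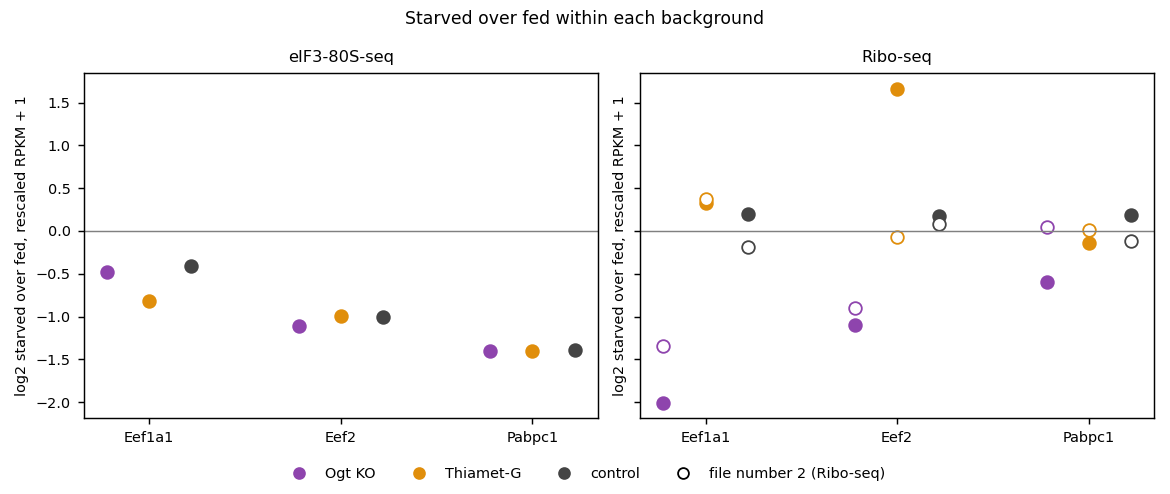
Log2 ratio of starved to fed, from rescaled levels, for each member within each background, with eIF3-80S-seq on the left (control libraries averaged) and Ribo-seq on the right, 1 point per pair of libraries with the same file number. In eIF3-80S-seq the 9 points lie between -1.41 and -0.41, and in Ribo-seq they run from -2.0 to 1.66.

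Whether eIF3-80S-seq responded more than Ribo-seq was tested directly in 1 fit of all 20 libraries. The starvation response was lower in eIF3-80S-seq than in Ribo-seq by 1.15 on the log2 scale for Pabpc1 (-1.15, 95% interval -2.63 to 0.33, limma adjusted p = 0.619) and by 0.85 for Eef2 (-0.85, 95% interval -1.76 to 0.06, limma adjusted p = 0.591). For Eef1a1 the difference was -0.002 (95% interval -1.02 to 1.02). Limma called 0 of the 3 members and 2 of 1675 transcripts (0.119%), with 145 passing 0.05 before adjustment, and limma-voom called 0 transcripts. With a block for the file number within Ribo-seq, an alternative added after the values were seen, the differences were -1.15 for Pabpc1 (95% interval -2.17 to -0.12, limma adjusted p = 0.349) and -0.85 for Eef2 (95% interval -1.68 to -0.02, limma adjusted p = 0.372). In that fit limma again called 2 of 1675 transcripts, with 222 passing 0.05 before adjustment. No member passed the adjusted threshold in either fit, while with the block the unadjusted intervals of Pabpc1 and Eef2 ended below 0.

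**Figure D3:**
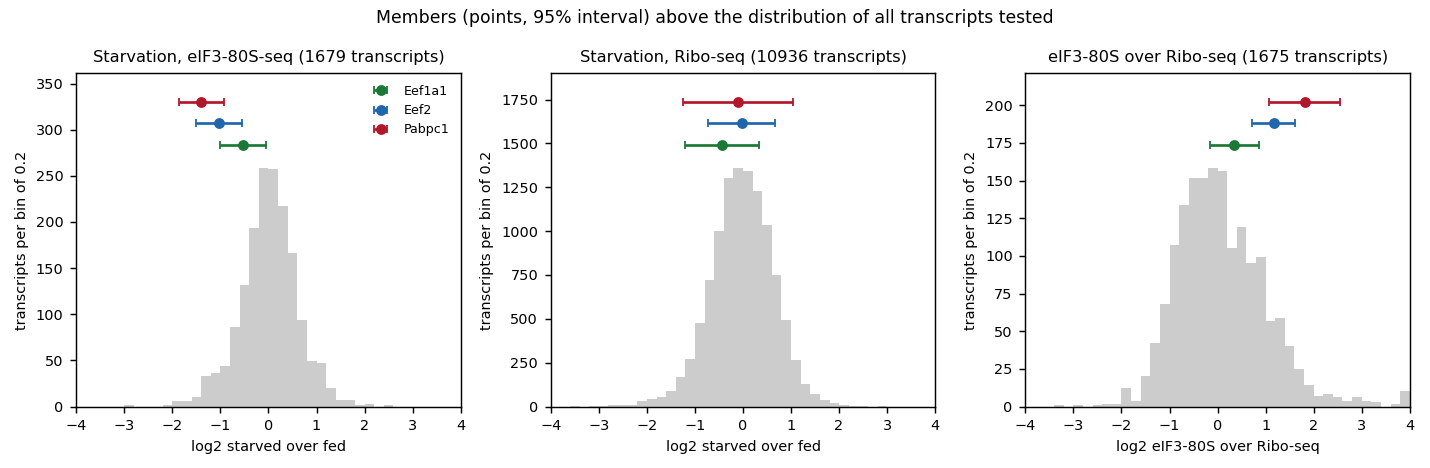
Log2 changes of the members (points with 95% intervals) above the number of transcripts per bin of 0.2 (bars; values past 4 are counted in the end bins) for starvation in eIF3-80S-seq, starvation in Ribo-seq, and eIF3-80S-seq over Ribo-seq. Pabpc1 and Eef2 stand to the left in the first panel, at -1.40 and -1.02, near the middle in the second, and to the right in the third, at 1.81 and 1.17.

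Eef2 and Pabpc1 took a higher level in eIF3-80S-seq than in Ribo-seq, and Eef1a1 did not pass the threshold. Pabpc1 had a lowest, median and highest level of 241, 606 and 1462 RPKM over 8 eIF3-80S libraries, against 70.6, 163 and 483 RPKM over 12 Ribo-seq libraries. Its mean was 742 ± 459 RPKM in eIF3-80S-seq and 212 ± 137 RPKM in Ribo-seq (SD). The fitted difference, averaged over the 6 states, was 1.81 on the log2 scale (SE 0.35, 95% interval 1.07 to 2.55, 3.51-fold, limma adjusted p = 0.000602). Eef2 had a mean of 769 ± 320 RPKM in eIF3-80S-seq and 331 ± 180 RPKM in Ribo-seq, a difference of 1.17 (SE 0.22, 95% interval 0.71 to 1.62, 2.25-fold, limma adjusted p = 0.00041). Eef1a1 had a mean of 3827 ± 922 RPKM in eIF3-80S-seq and 3040 ± 1855 RPKM in Ribo-seq, a difference of 0.35 (SE 0.24, 95% interval -0.16 to 0.86, limma adjusted p = 0.248), and quantile normalization raised it to 1.14 (limma adjusted p = 0.00497).

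Of the 3 members 2 were called higher in eIF3-80S-seq, where 393 of 1675 transcripts (23.5%) were called higher and 388 (23.2%) lower, together 46.6%, so such a call was common. Both calls held under each of the 29 alternatives run. The difference between the assays was more positive in longer coding regions. Its median was -0.73 for at most 600 nt, -0.40 for over 600 to 1200 nt, 0.27 for over 1200 to 3000 nt and 0.98 for over 3000 nt. Within the class of the members, where 188 of 658 were called higher, Pabpc1 stood at percentile 97.1, Eef2 at 87.5 and Eef1a1 at 53.2. Per the labels, fragments of 20 to 70 nt were selected for eIF3-80S-seq and fragments of 25 to 35 nt for Ribo-seq, so fragment size and eIF3 association cannot be told apart.

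By rank, Eef1a1 was among the most read transcripts per length in both assays. Its rank, with 1 the highest RPKM, ran from 10 to 26 in eIF3-80S libraries (median 12.5) and from 7 to 265 in Ribo-seq libraries (median 75.5). Eef2 had median ranks of 237.5 in eIF3-80S-seq and 903.5 in Ribo-seq. Pabpc1 had median ranks of 270.5 in eIF3-80S-seq and 1418.5 in Ribo-seq. Ranks come from lists of different lengths and are given as positions, with no test.

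The proportions among the 3 are described per library, with no test, and their ranges overlapped between the assays. Per length, Eef1a1 had 6.87 ± 4.40 times the level of Pabpc1 in eIF3-80S libraries (SD, n = 8) and 17.4 ± 8.52 times in Ribo-seq libraries (SD, n = 12). Eef1a1 had 5.44 ± 1.87 times the level of Eef2 in eIF3-80S-seq and 9.34 ± 2.87 times in Ribo-seq. Eef2 had 1.20 ± 0.40 times the level of Pabpc1 in eIF3-80S-seq and 1.93 ± 0.95 times in Ribo-seq. Within Ribo-seq that last ratio was 1.34 ± 0.46 in libraries of file number 1 and 2.52 ± 0.98 in those of number 2 (SD, n = 6 each). Within eIF3-80S-seq the ratio of Eef1a1 to Pabpc1 was 9.07 ± 5.39 in starved and 4.68 ± 1.80 in fed libraries (SD, n = 4 each), and the ranges overlapped. The 3 transcripts together took 0.665% ± 0.0745 of reads in starved and 1.08% ± 0.219 in fed eIF3-80S libraries (SD, n = 4 each). In Ribo-seq they took 0.492% ± 0.224 of reads in starved and 0.604% ± 0.375 in fed libraries (SD, n = 6 each).

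No member passed the threshold for the knockout or for Thiamet-G in Ribo-seq. In fed cells limma called 0 of 10936 transcripts (0.0%) for Ogt KO over control and 0 (0.0%) for Thiamet-G over control, with 401 and 51 at an unadjusted p under 0.05. The log2 ratio of fed Ogt KO to fed control cells was 0.54 for Eef1a1 (95% interval -0.79 to 1.86), 0.32 for Eef2 (-0.88 to 1.52) and 0.19 for Pabpc1 (-1.78 to 2.16). The log2 ratio of fed Thiamet-G to fed control cells was -0.47 for Eef1a1 (95% interval -1.80 to 0.86), -0.22 for Eef2 (-1.43 to 0.98) and 0.16 for Pabpc1 (-1.81 to 2.13). In starved cells limma called 0 of 10936 transcripts (0.0%) for either background, with 147 for Ogt KO and 316 for Thiamet-G passing 0.05 before adjustment. Limma-voom called 0 in all 4 contrasts. The log2 ratio of starved Ogt KO to starved control cells was -1.15 for Eef1a1, -0.81 for Eef2 and -0.13 for Pabpc1, and that of starved Thiamet-G to starved control cells was -0.13, 0.44 and 0.06. The intervals span several-fold changes in both directions for Pabpc1. In eIF3-80S-seq the Ogt KO and Thiamet-G groups had 1 library each and no contrast of backgrounds was tested.

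In the order of group means, 12 of 15 neighbouring pairs had overlapping libraries in Ribo-seq and 6 of 15 in eIF3-80S-seq. In the latter 4 of the 6 groups are single libraries, and neighbouring single libraries cannot overlap. The share of overlapping pairs over all transcripts was not counted, so these counts only describe the order. In Ribo-seq the lowest mean Eef1a1 level was 1564 ± 805 RPKM, in starved Ogt KO cells, and the highest 5454 ± 4099 RPKM, in fed Ogt KO cells (SD, n = 2 each). Of the 5 neighbouring pairs in the order of Eef1a1, only fed Thiamet-G and fed control cells had libraries that did not overlap. For Eef2 the highest mean was 537 ± 403 RPKM in starved Thiamet-G and the lowest 199.9 ± 77.4 RPKM in starved Ogt KO cells (SD, n = 2 each), and 3 of 5 neighbouring pairs overlapped. Those that did not were starved and fed control cells, and fed Thiamet-G and fed control cells. For Pabpc1 all 5 neighbouring pairs overlapped, from 277 ± 291 RPKM in starved Thiamet-G to 161 ± 48.5 RPKM in fed control cells (SD, n = 2 each). In eIF3-80S-seq the 3 fed groups held the upper 3 places for each member, though Eef1a1 was not called lower in starved cells. How many of all transcripts share this order was not counted.

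Ribo-seq libraries differed by their file number, and Pabpc1 moved with it. The deposited Ribo-seq files carry a replicate number, 1 or 2, which differs from the title's number for the 2 starved Thiamet-G libraries only, and no label says what it stands for. In files numbered 2, 13.99% to 21.46% of listed transcripts with recovered reads had under 5 reads, against at most 0.07% in files numbered 1, so the listing of low transcripts followed the number. Pabpc1 had a lowest, median and highest level of 195.5, 278 and 483 RPKM in the 6 libraries numbered 1, against 70.6, 124 and 131 RPKM in the 6 numbered 2. The levels did not overlap, and the share of all transcripts with this separation was not counted. The mean was 315 ± 123 RPKM for number 1 and 109 ± 29.2 RPKM for number 2 (SD, n = 6 each).

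With the number as a term in the fit, Pabpc1 was higher in number 1 by 1.41 on the log2 scale (SE 0.32, 95% interval 0.72 to 2.10, 2.67-fold, limma adjusted p = 0.0133), and higher in 6 of 6 groups. Such an order in 6 of 6 groups was seen in 772 of 10936 transcripts (7.06%). Limma called 1 of the 3 members, where 466 transcripts (4.26%) were called higher and 616 (5.63%) lower in number 1, together 9.89%. After rescaling the difference was widest in Thiamet-G cells, 5.50-fold when starved and 6.14-fold when fed, and ran from 1.42-fold to 2.21-fold in the other 4 groups. The call ended without any 1 of the 4 Thiamet-G libraries (1.17 to 1.21, limma adjusted p = 0.0509 to 0.0770) and without starved control replicate 1 (1.49, limma adjusted p = 0.0502). Eef1a1 was higher in number 1 in 6 of 6 groups, by 0.75 on the log2 scale (limma adjusted p = 0.0971), and Eef2 in 5 of 6, by 0.50 (limma adjusted p = 0.268). This comparison was added after the values were seen. The file number was preferred to the title number from correlations in these same libraries, so the fit is no independent test of it. By title number the Pabpc1 gap in starved Thiamet-G cells is reversed, with 71.7 RPKM in replicate 1 and 483 RPKM in replicate 2.

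Within each file number the ratios of starved to fed for Pabpc1 lay on both sides of 0, in number 1 as in number 2. Its log2 ratio of starved to fed after rescaling, for numbers 1 and 2, was -0.60 and 0.04 in Ogt KO, -0.14 and 0.02 in Thiamet-G, and 0.19 and -0.12 in control cells. The value for Thiamet-G number 1 was 0.11 in the RPKM as deposited, on the other side of 0, and no other sign among the members differed. For Eef1a1 the rescaled ratios were -2.0 and -1.34 in Ogt KO, 0.32 and 0.37 in Thiamet-G, and 0.20 and -0.18 in control cells. For Eef2 they were -1.10 and -0.90 in Ogt KO, 1.66 and -0.07 in Thiamet-G, and 0.17 and 0.08 in control cells. Both pairs of Ogt KO libraries thus gave lower Eef1a1 and Eef2 in starved cells, though neither change was called. The 1.66 of Eef2 came from a single pair.

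**Figure D4:**
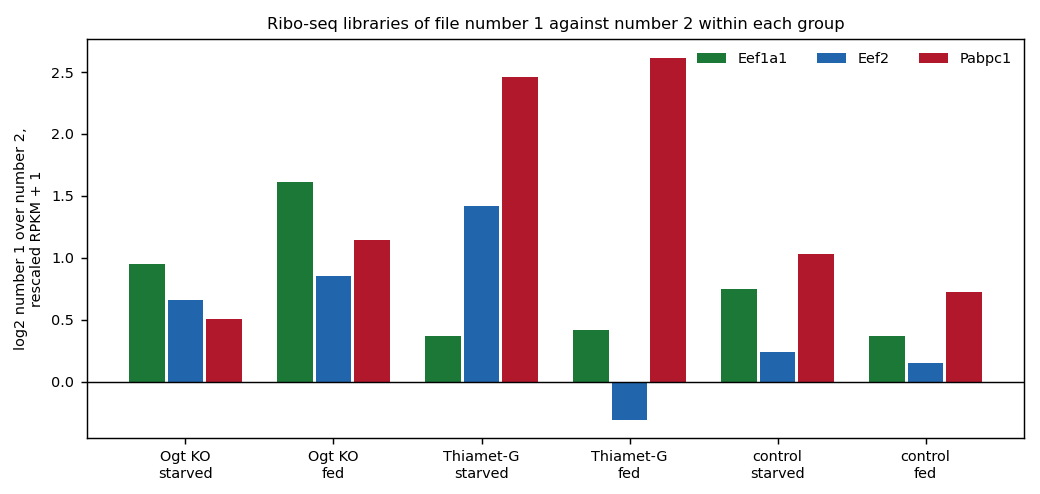
Log2 ratio of rescaled levels, the library of file number 1 over that of number 2, within each Ribo-seq group (x axis) for Eef1a1, Eef2 and Pabpc1 (bars from 0). Pabpc1 bars are above 0 in 6 of 6 groups and tallest in the Thiamet-G groups, at 2.46 starved and 2.62 fed.

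Across the 12 Ribo-seq libraries the level of Eef1a1 followed that of Eef2 more closely, by Pearson correlation, than that of Pabpc1. These correlations are descriptions over 12 libraries that share file number, depth and treatment, on the scale of rescaled log2(RPKM + 1). Eef1a1 and Eef2 had a Pearson correlation of 0.75 (Spearman 0.71), which placed Eef2 at rank 6 of 10935 transcripts by likeness to Eef1a1 and Eef1a1 at rank 5 by likeness to Eef2. Pabpc1 had Pearson correlations of 0.46 with Eef1a1 (Spearman 0.63) and 0.45 with Eef2 (Spearman 0.26) and stood at rank 693 and 503 in the same orders. The transcript most like Pabpc1 was ENSMUST00000080178 (Pearson 0.92, Spearman 0.94), which has a coding length of 1983 nt and a mean level of 2.29 RPKM. The transcript most like Eef1a1 was ENSMUST00000174078 (Pearson 0.81), with a mean level of 4.55 RPKM, and that most like Eef2 was ENSMUST00000024627 (Pearson 0.82), with a mean level of 14.7 RPKM. The files do not pair these identifiers with gene names.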

How the data were processed

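Mouse footprint libraries (12 Ribo-seq, 8 eIF3-80S-seq) were analysed from 1 file per library, in which the authors deposited RPKM per Ensembl transcript, listing values above 0 only. Cutadapt, STAR and GRCm38 are named per the submitters' processing notes; counter, annotation and filters: not given in the sources used here. The groups came from the titles.

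Whole reads, library totals and coding lengths were recovered from the RPKM steps (relative tolerance 1e-09). In each library 96.18% or more of the values came out whole, and lengths were found for 13214 of 15354 transcripts, 99.8% of them multiples of 3. The method and the fits were tested on simulated data. Between replicates the chi-square of reads per transcript was 12.9 to 100.7, so none were duplicates.

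RPKM values were rescaled by the median ratio between libraries (factors of 0.835 to 1.18) and tested on log2(RPKM + 1) with limma 3.58.1 in R 4.3.3 (lmFit, eBayes with a trend), two-sided, with Benjamini-Hochberg adjustment over all transcripts tested and a threshold of 0.05. A fold change on this scale is too small for low transcripts. The contrasts within Ribo-seq came from a single fit of 6 groups (6 residual degrees of freedom) on 10936 transcripts whose mean reached 1 RPKM, unlisted taken as 0. eIF3-80S starvation came from an additive fit of background and starvation (4 residual degrees of freedom) on the 1679 transcripts listed in all 8 libraries. The assays were compared in a fit of state, assay and their interaction with starvation (12 residual degrees of freedom) on the 1675 listed in all 20. All 3 members passed each filter.

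Numbers in the deposited file names were used to pair the Ribo-seq libraries, though no label says what they stand for. With them, correlations of the deviations from group means were 0.188 to 0.453, over 0.1 in 15 of 15 pairs of groups. Among transcripts listed in every library, 14 of 15 were over 0.1, the lowest 0.080. For the numbers of the titles, 10 of 15 were over 0.1 among all transcripts tested. The numberings differ for starved Thiamet-G cells only, so only pairs with that group can differ between them. Whether libraries of the same number share cultures or only processing was not tested. Alternatives were quantile normalization, no rescaling, a pseudocount of 0.1, no trend, other filters, limma-voom on recovered reads (mean of at least 10), replicate blocks and each library left out. A fit of the transcripts listed in every library with the block, a fit without both starved Thiamet-G Ribo-seq libraries, the block by file names within Ribo-seq in the fit of both assays, the contrast of Ogt KO with Thiamet-G responses and the file number term were added after the data were seen.

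The members, lists and tests were chosen with earlier results of these data known. Named transcripts are the 3 members and, for each, the 1 transcript with the highest Pearson correlation over the Ribo-seq libraries. Since the reference table matched 0 identifiers to a symbol, the members' names come from the list that defined them, and other elongation and TOP genes, cell type markers and Ogt were not analysed here. Promoter windows are from RefSeq.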

Additional observations from a re-analysis of the deposited data

Results flagged for a closer look

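Of 12 sets of starved or fed libraries checked, 6 in eIF3-80S-seq with 4 libraries each and 6 in Ribo-seq with 6 libraries each, 3 had 1 library far from the others by Dixon's test, all in Ribo-seq. Were each set drawn from a single normal population, chance would give this in about 1 in 20 sets. The sets pool 3 backgrounds, so that rate may not hold here. Eef1a1 had 8352 RPKM and Eef2 had 535 RPKM in fed Ogt KO replicate 1, each the highest of the 6 fed libraries, with gaps of 0.795 and 0.800 of the range against a critical value of 0.625. Eef2 had 822 RPKM in starved Thiamet-G replicate 2, the highest of the 6 starved libraries, with a gap of 0.691 of the range. Pabpc1 was at 307 RPKM and 483 RPKM in these libraries.

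With libraries paired by file number, Ribo-seq Eef1a1 was lower in starved cells in both Ogt KO pairs and higher in both Thiamet-G pairs. The difference between these responses was -2.02 on the log2 scale (95% interval -3.90 to -0.14, limma adjusted p = 1), a contrast added after the values were seen. Eef2 was lower in starved cells in both Ogt KO pairs and higher in both control pairs, and the difference between those responses was -1.13 (95% interval -2.83 to 0.57, limma adjusted p = 1). Neither difference passed the threshold, and the share of all transcripts with such signs was not counted. The Thiamet-G signs of Eef1a1 depend on the pairing. By title numbers, starved Thiamet-G replicate 1 (2328 RPKM) lay below fed Thiamet-G replicate 1 (2444 RPKM). Without single libraries, the Eef1a1 difference between Ogt KO and Thiamet-G responses ran from -2.83 to -1.21.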

How the results depend on the processing

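Of the comparisons of single members with their values under alternatives, 942 kept their direction and side of the threshold, 11 were no longer called, 2 became called and 68 changed sign; in counts of calls, 276 stayed within 1.5 times and 65 did not. The cause of a change was not tested unless stated. Depth limits eIF3-80S-seq, where a member had as few as 24 reads, and 2 libraries per group limit Ribo-seq. With RPKM as deposited, the median log2 change over all transcripts for eIF3-80S starvation was 0.105, against 0.025 after rescaling.

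With the replicate block by file names no member's call changed in the contrasts within Ribo-seq or, with the block within Ribo-seq, in the assay difference (884 calls) and the assay interaction (2 calls). Averaged starvation calls in Ribo-seq went to 100 (7 with the block by titles) against 19 without it. They were 0 under quantile normalization, a pseudocount of 0.1, no trend or no filter (974, 988, 870 and 1067 passed an unadjusted 0.05 in limma), 49 with limma-voom (6 higher, 43 lower), 34 for transcripts listed in every library, 104 for these with the replicate block, and 379 for limma-voom with the replicate block (257 higher, 122 lower). Leaving out single libraries gave 0 to 25 (781 to 1236 unadjusted where 0). Limma-voom with the replicate block called 220 in control cells, 13 in Thiamet-G cells, 1 for the Ogt KO interaction and 1 for Ogt KO against Thiamet-G; the block on transcripts listed in every library called 10 in control cells. eIF3-80S starvation calls were 89 under quantile normalization and 22 with unlisted transcripts tested as 0, and 42 to 170 without single libraries (42 without fed Thiamet-G cells). The assay difference gave 6309 calls with unlisted transcripts tested as 0, where the listing itself differs between assays, 614 to 1214 without single libraries, and 324 higher and 201 lower with limma-voom. The assay interaction gave 1 under quantile normalization, 13 with unlisted transcripts as 0, 0 to 2 without single libraries, and 0 under RPKM as deposited, a pseudocount of 0.1, no trend, limma-voom, a fit of 12 groups or without both starved Thiamet-G libraries (95 to 182 unadjusted). The file number term gave 713 calls for transcripts listed in every library and 417 to 904 without single libraries.

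Among members, the eIF3-80S starvation value of Eef2 lost its call at -0.72 under quantile normalization and at -1.02 with unlisted transcripts as 0, and ran from -1.15 to -0.93 without single libraries; that of Eef1a1 turned to 0.10 under quantile normalization. The assay difference of Eef1a1 passed under quantile normalization (1.14), and its file number term passed with limma-voom (0.81). The file number term of Pabpc1 ran from 1.17 to 1.59 without single libraries.

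Signs changed only for uncalled values. Averaged starvation in Ribo-seq was 0.0299 for Eef1a1 and 0.0765 for Eef2 under quantile normalization, and for Eef2 0.0566 as deposited, 0.0672 with limma-voom and 0.0730 with limma-voom and the replicate block; without single libraries it ran from -0.26 to 0.20 for Eef2 and from -0.54 to 0.33 for Pabpc1. Without single libraries, starvation in Ogt KO cells ran from -0.86 to 0.30 for Pabpc1, in Thiamet-G cells from -1.36 to 1.25 for Pabpc1, and in control cells from -0.37 to 0.37 for Eef1a1 and from -0.48 to 0.54 for Pabpc1. In Thiamet-G cells Pabpc1 was 0.16 under quantile normalization, 0.0678 as deposited, 0.0190 with limma-voom and 0.0981 with limma-voom and the replicate block. The Ogt KO interaction of Pabpc1 ran from -0.89 to 0.25. The Thiamet-G interaction ran from -0.0237 to 0.71 for Eef1a1, from -0.0530 to 1.37 for Eef2 and from -1.39 to 1.21 for Pabpc1, which was 0.0328 under quantile normalization. Ogt KO against Thiamet-G ran from -1.52 to 1.07 for Pabpc1. In fed cells Ogt KO over control ran from -0.27 to 1.34 for Eef1a1, from -0.10 to 0.75 for Eef2 and from -0.38 to 0.76 for Pabpc1, and Thiamet-G over control from -1.15 to 1.46 for Pabpc1. In starved cells Ogt KO over control ran from -0.64 to 0.40 for Pabpc1, and Thiamet-G over control from -0.50 to 0.25 for Eef1a1, from -0.27 to 1.15 for Eef2 and from -1.17 to 1.29 for Pabpc1. The assay interaction of Eef1a1 was 0.0197 in a fit of 12 groups and 0.18 without both starved Thiamet-G libraries, and ran from -0.28 to 0.23.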
